A study of Arabidopsis thaliana with 18 samples.

Results

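The comparison of vte2 with Col leaves after 48 h of low temperature (LT, 7°C) comprised 6 of the 18 Affymetrix ATH1 arrays of the series, 3 for each genotype, chosen by their labels alone. Col is the wild-type Columbia accession of Arabidopsis thaliana, and vte2 is a point mutation allele present in the whole plant. Both groups held rosette leaves 9 to 11 of 4-week-old plants raised at 22°C by day and 18°C by night, then moved to 7°C with the same 12 h light period, and each array held the pooled leaves of 3 plants. The labels name no transgene and no treatment other than LT. The 6 arrays of both genotypes before the transfer (0 h) are given beside them where needed, and those of 120 h only once. The question was which genes differed between the genotypes at 48 h when all 22810 probe sets were tested on these 6 arrays, and which gene families moved as a group, with most room given to genes outside the 77 loci that the study listed for this time point.

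Tocopherols are lipid antioxidants of the plastid, and VTE2 encodes the homogentisate phytyltransferase that starts their synthesis, so vte2 leaves lack them. In the cold, vte2 leaves are known for callose deposits at the transfer cell walls of phloem parenchyma, the cells through which sucrose leaves the leaf tissue on its way into the phloem, and for reduced export of photoassimilate. Leaf cell walls hold cellulose tethered by xyloglucan, which XTH enzymes cut and rejoin and expansins loosen, and pectin, which methylesterases modify. VTE2 was not among the probe sets that could be named, so the mutated gene was not used to check the labels.

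All values below are log2 expression values from RMA, which sets the arrays on a common scale, and a difference is vte2 minus Col on that scale unless stated otherwise. A level of 3.57 stood at percentile 25 of all probe sets and 7.21 at percentile 75, which gives a scale for the single values; levels of different genes are not compared, since probe sets differ in response. Precision is limited by there being 3 arrays a group. The labels give the replicates as biological, and p-values measure the spread between these 6 samples. The bulk leaf values cannot tell apart fewer cells of a type and less RNA per cell. Of 56 markers of leaf and other cell types, 6 could be named. Rubisco activase RCA, of the mesophyll, lay between 12.53 and 13.06 in the 6 arrays, the phloem sucrose exporter SWEET11 between 10.39 and 11.09, and the root beta-glucosidase PYK10 between 3.21 and 3.37, near percentile 10 of all probe sets (3.19). The others were FMA of guard cells (5.31 to 5.72), TRY of trichomes (4.51 to 5.07) and TUA1, a tubulin known from pollen (8.50 to 8.94). None of the 6 markers differed between the genotypes in limma (adjusted p = 0.319 to 0.888).

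One array stood apart. Col replicate 2 had correlations of 0.980 to 0.989 across probe sets with the other 5 arrays, while those 5 had 0.990 to 0.996 among themselves. In Col replicate 2, 384 probe sets lay more than 2-fold below both other Col arrays and 80 more than 2-fold above both, against at most 21 and 31 in any other array of the 6. The genes it held low included members of several lists. The median of 8 calmodulin-like genes differed by -1.04 from Col replicates 1 and 3, with CML37 at -3.32 and CML38 at -2.23, and that of 7 cold-regulated genes was at -0.57. XTH19 was at -3.60 and XTH18 at -2.11. Jasmonate-type defensin genes went the other way, with PDF1.2 at 2.01 above the other Col arrays. Results that rest on this array are given with and without it.

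In the fit of the 6 arrays with limma, 58 probe sets rose and 92 fell in vte2 relative to Col (adjusted p under the threshold of 0.05), which is 0.254% and 0.403% of those tested (0.658% in either direction). The 3 vte2 arrays lay wholly above the 3 Col arrays for 1784 probe sets (7.82%) and wholly below for 1898 (8.32%). Without Col replicate 2, 139 rose (0.609%) and 112 fell (0.491%), and 134 of the 150 calls were kept. The count depended on the other arrays too, at 58 without Col replicate 1, 230 without Col replicate 3, and 18, 15 and 29 without vte2 replicates 1, 2 and 3. In a fit that also took the spread from the 12 other arrays, 49 rose and 28 fell, of which 44 were shared. The differences themselves are the same in these fits of 6 and 18 arrays, while the spread and the degrees of freedom differ (4 residual against 12): the median SD within groups was 0.142 at 48 h and 0.242 at 0 h. The median rise was 1.02 and the median fall -0.93, and 30 rises and 41 falls exceeded 2-fold. Over all probe sets the median difference was 0.001. More probe sets had a mean difference above 2-fold up (158) than down (57), but 128 of the former were not called, and in 113 of these 128 Col replicate 2 was the lowest of the 6 arrays; without it, 75 were above 2-fold up and 48 down.

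A single gene was available for 74 of the 150 calls. Of these, 23 were among the 77 loci in the study's own tables, which it chose on these arrays, and 51 were not (23 that rose and 28 that fell). All 23 also passed in the fit of 18 arrays, and none of the 51 did, although 32 of the 51 had an unadjusted p under 0.05 there. That fit has as many calls as the tables have loci (77), so the split by the tables and the split by the fit are not independent. Of the 51, 44 passed without Col replicate 2, 23 with the replicate number as a block and all 51 with array weights. Of the 39 called genes given by name below, 3, 3 and 8 passed without vte2 replicates 1, 2 and 3.

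The largest named fall outside those tables was in At3g26960, which was at 8.12, 8.05 and 8.13 in the 3 Col arrays and at 6.58, 6.62 and 7.00 in the 3 vte2 arrays. Its difference of -1.37 (standard error, SE, 0.13; limma adjusted p = 0.01) separated the groups completely, with the Col arrays close together. The tables used here give this gene no function. DEWAX (At5g61590), an ethylene response factor known to repress cuticular wax synthesis, was at 8.64, 8.21 and 7.97 in Col and at 7.00, 6.98 and 6.95 in vte2, a difference of -1.30 (SE 0.16, limma adjusted p = 0.0262). The vte2 arrays were tight and all below Col.

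At3g15450 was at 6.42, 6.15 and 6.43 in Col and at 4.94, 5.02 and 5.46 in vte2 (-1.2, SE 0.16, limma adjusted p = 0.0299). GH9B8, an endo-1,4-beta-glucanase of glycoside hydrolase family 9, was at 5.49, 5.53 and 5.81 in Col and at 4.59, 4.37 and 4.3 in vte2, a fall of 2.28-fold (-1.19, SE 0.13, limma adjusted p = 0.0142). At1g73600 was at 10.24, 10.45 and 9.77 in Col and at 8.95, 9.07 and 8.90 in vte2 (-1.18, SE 0.17, limma adjusted p = 0.0368). In each of these the lowest Col array was above the highest vte2 array.

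The other 10 falls ranked by size ran from At5g63180 (-1.08) to BCAT4 (-0.82). They included a further family 9 endoglucanase, GH9C2 (-0.89, SE 0.13), cystathionine beta-lyase CBL (-0.83, SE 0.10), which makes homocysteine for methionine, and At3g45160 (-0.99, SE 0.09). At1g16310, At1g49470, At1g26920, At5g48900 and At3g56360, which have no function in the tables used here, fell by 0.87 to 1.04 on the log2 scale.

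The largest named rise outside the tables was in At4g39190, at 3.81, 3.66 and 3.68 in Col and 5.08, 5.47 and 5.19 in vte2, a rise of 2.89-fold (1.53, SE 0.12, limma adjusted p = 0.0038). XTH16, a xyloglucan endotransglucosylase, was at 5.0, 4.51 and 4.72 in Col and 6.62, 6.15 and 6.04 in vte2 (1.53, SE 0.18, limma adjusted p = 0.0231). The Col and vte2 arrays were at least 1 log2 unit apart for both genes. F6'H1 (At3g13610), the hydroxylase that makes the coumarin scopoletin from feruloyl-CoA, was at 6.16, 6.51 and 6.03 in Col and 7.42, 7.57 and 7.73 in vte2 (1.34, SE 0.15, limma adjusted p = 0.0154).

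At1g74010 was at 5.81, 5.82 and 6.32 in Col and 7.02, 7.41 and 7.17 in vte2 (1.22, SE 0.17, limma adjusted p = 0.034). PME41 (listed as ATPMEPCRB), a pectin methylesterase, was at 8.70, 7.99 and 8.31 in Col and 9.71, 9.53 and 9.40 in vte2 (1.21, SE 0.18, limma adjusted p = 0.0418). Col replicate 2 was the lowest Col array for XTH16 and PME41, but both rises passed without it, at 1.41 (limma adjusted p = 0.0178) and 1.04 (limma adjusted p = 0.0258).

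**Figure D1:**
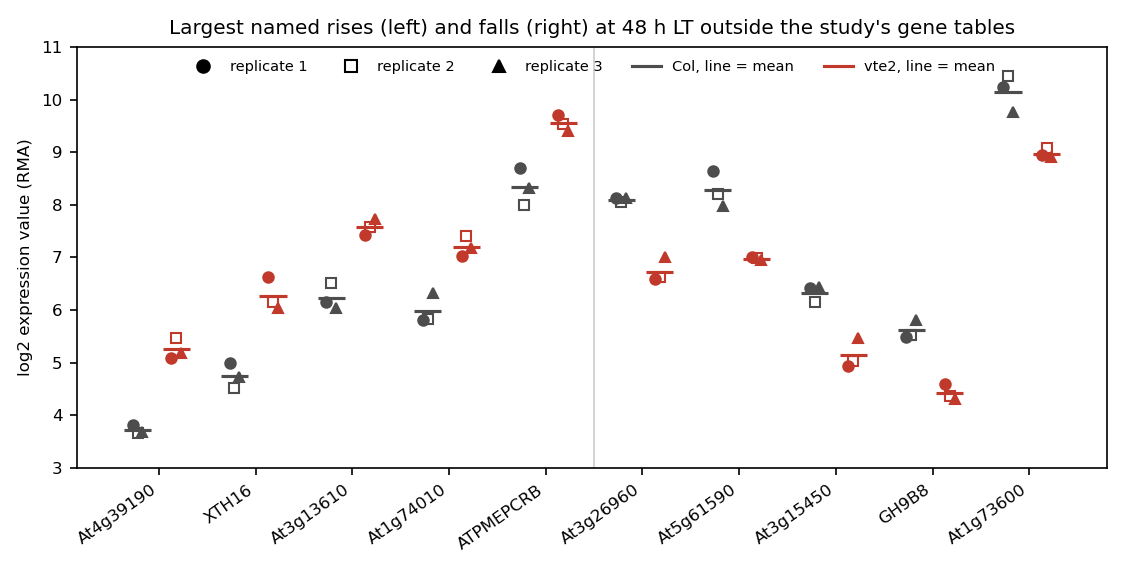
Log2 expression values (vertical axis) of the 5 largest named rises and the 5 largest named falls at 48 h LT outside the study's gene tables (horizontal axis); each symbol is 1 array, grey for Col and red for vte2, and the lines are the means of 3 arrays. The 3 vte2 arrays lie wholly above or wholly below the 3 Col arrays for all 10 genes, for example at 5.08 to 5.47 against 3.66 to 3.81 for At4g39190.

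The other 10 rises ran from At1g80520 (1.2) to At1g55210 (0.76). They included the beta-glucosidase BGLU25 (1.12, SE 0.17), the glutaredoxin GRX480, also known as ROXY19 (1.05, SE 0.16), the expansin-like EXLA2 (0.87, SE 0.09) and the class III peroxidase PRX25 (At2g41480, 0.86, SE 0.11). NANA, a chloroplast aspartic protease, rose by 0.80 (SE 0.11), and SKU5 by 0.77 (SE 0.11). SKU5 is a membrane-anchored glycoprotein known from directional root growth. At4g18280 (0.91) and At5g58570 (0.88) are not annotated here.

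Gene families were then examined through 46 lists with at least 5 named genes, each gene by its brightest probe set, and 3 smaller lists (light-harvesting proteins, Calvin cycle and aliphatic glucosinolates) are given by their members only. Over all 13286 named genes, 0.263% rose and 0.294% fell, and the 3 vte2 arrays lay wholly above the 3 Col arrays in 7.58% of genes and wholly below in 7.86%. The counts below are read against these shares; no list was tested as a set. Members given beyond those that passed, or beyond the pair of smallest p where none passed, were chosen after their values were seen.

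Genes of chlorophyll synthesis, the plastid pathway from glutamate to chlorophyll, had the lowest median of the 46 lists. Of 8 named genes, 1 fell, none rose, 5 had negative and 3 positive differences, and 5 had all vte2 arrays below all Col arrays. The median difference was -0.41 with all arrays. Without Col replicate 2 it was -0.33, level with the monosaccharide transporters below (-0.33), so the lowest rank rests on that array. CHLM, which methylates magnesium protoporphyrin, was at 9.39, 9.29 and 9.23 in Col and 8.79, 8.73 and 8.70 in vte2 (-0.56, SE 0.09, limma adjusted p = 0.0442). The groups did not overlap, but CHLM passed in only 2 of 13 other settings (array weights and the trended prior), with a limma adjusted p of up to 0.215.

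CHLI2, a subunit of the magnesium chelatase that acts just before CHLM, was at 7.75, 7.73 and 7.76 in Col and 7.21, 7.39 and 7.43 in vte2 (-0.40, limma adjusted p = 0.141). The uroporphyrinogen decarboxylases HEME2 (-0.55) and HEME1 (-0.42) and the protochlorophyllide reductase PORB (-0.46) had adjusted p = 0.201 to 0.286 in limma. The only member with a positive difference of over 0.1 was HEMA2, at 0.57, where Col replicate 2 was at 6.56 and the other 5 arrays at 7.89 to 8.16; without that array its difference was 0.10.

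All 6 named nuclear-encoded subunits of the photosystems had negative differences (median -0.24), 1 fell, and 4 had all vte2 arrays below all Col arrays. At1g51400, a 5 kD protein of photosystem II, was at 8.83, 8.87 and 8.44 in Col and 7.78, 7.84 and 7.88 in vte2 (-0.88, SE 0.13, limma adjusted p = 0.0382), and PSB27, which assists the assembly of photosystem II, was at -0.48 (limma adjusted p = 0.109). Both are in the study's tables, so their direction is not independent evidence. At1g51400, the only member that passed, was put on this list because of its annotation in those tables, so its fall is not a result about the list. PSAN, a lumenal subunit of photosystem I outside those tables, was at 11.45, 11.45 and 11.36 in Col and 11.00, 11.13 and 11.18 in vte2 (-0.32, limma adjusted p = 0.227), and PSAE-1 was at -0.11.

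The 3 genes for CP29, a minor light-harvesting protein of photosystem II, differed in size. LHCB4.2, in the tables as well, was at 10.04, 10.18 and 9.78 in Col and 9.18, 9.20 and 9.17 in vte2 (-0.82, SE 0.12, limma adjusted p = 0.0346). LHCB4.1 was at 11.59, 11.73 and 11.61 in Col and 11.39, 11.21 and 11.43 in vte2 (-0.30, limma adjusted p = 0.299), with no overlap between the groups. LHCB4.3 overlapped, at -0.34, or -0.15 without Col replicate 2.

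Among 4 named enzymes of the Calvin cycle, phosphoribulokinase PRK (-0.46, limma adjusted p = 0.289) and RCA (-0.30, limma adjusted p = 0.319) had all vte2 arrays below all Col arrays, and none passed. The 69 genes encoded in the plastid genome, split from the nuclear ones after their values were seen, did not follow. Their median difference was 0.08, with 53 positive and 16 negative. Of the 69, 1 gene was wholly higher (psbL, 0.15) and 1 wholly lower (ndhF, -0.40), and none passed. The array medians of the plastid-encoded genes ranged from -0.20 to 0.35 among the vte2 replicates alone, so single replicates differed by more than the genotypes did.

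**Figure D2:**
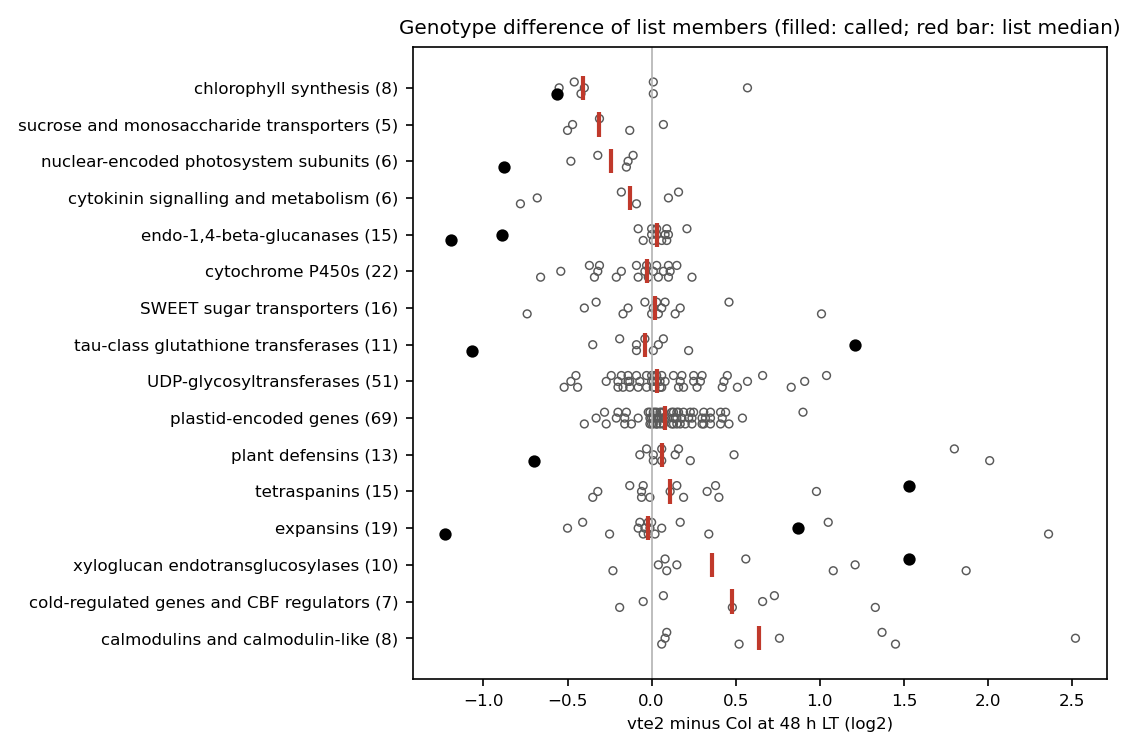
Difference between vte2 and Col at 48 h LT (horizontal axis, log2) of each named gene in 16 lists (vertical axis, number of genes in brackets); filled points passed in limma with all 6 arrays, open points did not, and red bars are list medians. Chlorophyll synthesis has the lowest median (-0.41) and the calmodulin-like genes the highest (0.64), while the 69 plastid-encoded genes centre on 0.08.

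Genes of the methionine-derived glucosinolates, sulfur-rich defence compounds of the cabbage family, had 4 named members, of which 2 fell; AOP1 was at 0.41 and AOP3 at -0.06. BCAT4, the aminotransferase that starts the elongation of methionine for these compounds, was at 10.58, 10.69 and 10.64 in Col and 9.86, 9.85 and 9.74 in vte2, a fall of 1.76-fold (-0.82, SE 0.09, limma adjusted p = 0.0142). GSTU20, a glutathione transferase linked to the same pathway and in the study's tables, was at 11.67, 11.63 and 11.75 in Col and 10.75, 10.65 and 10.45 in vte2 (-1.07, SE 0.10, limma adjusted p = 0.0112). Both lay well above percentile 75 of all levels, and neither overlapped between the genotypes.

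CBL, upstream in methionine synthesis, was at 8.77, 9.03 and 8.96 in Col and 7.99, 8.14 and 8.13 in vte2. It was the only 1 of 6 named genes of sulfur assimilation and methionine synthesis that passed; the list had a median of -0.14. All 3 genes kept their falls without Col replicate 2, at -0.79, -1.09 and -0.77 (limma adjusted p = 0.0178, 0.00982 and 0.0278).

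Sugar transporters were split. Of 5 named monosaccharide transporters, none passed, and 3 had all vte2 arrays below all Col arrays (median -0.31, or -0.33 without Col replicate 2): SFP1 (-0.47, limma adjusted p = 0.224) and its direct neighbour in the genome SFP2 (-0.31, limma adjusted p = 0.313), both of the ERD6-like family, and the vacuolar carrier TMT1 (-0.50, limma adjusted p = 0.294). SFP1 was at 7.80, 7.77 and 7.47 in Col and 7.23, 7.36 and 7.03 in vte2.

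Of 16 SWEET genes, which encode sugar uniporters, none passed, 4 were wholly lower and 2 wholly higher in vte2, and the median was 0.02. SWEET4 was at 7.03, 6.98 and 7.51 in Col and 6.35, 6.41 and 6.53 in vte2 (-0.74, SE 0.15, limma adjusted p = 0.101). The vacuolar fructose carrier SWEET17 was at -0.40, and the phloem exporter SWEET11 at -0.33, or -0.18 without Col replicate 2. SAG29, which is SWEET15 and is in the study's tables, had the opposite sign, at 3.88, 3.98 and 3.85 in Col and 4.46, 5.13 and 5.15 in vte2 (1.01, SE 0.19, limma adjusted p = 0.0779). SWEET13 depended on 1 array: its difference was 0.46 (limma adjusted p = 0.511) with all arrays, and 0.73 (limma adjusted p = 0.0256) without Col replicate 2.

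Of 6 named response regulators, none passed, and the type-A members ARR15 and RR16, which cytokinin induces and which damp its signal, had the largest differences. ARR15 was at 5.52, 5.05 and 5.13 in Col and 4.59, 4.41 and 4.66 in vte2 (-0.68, SE 0.14, limma adjusted p = 0.109). RR16 was at 5.55, 5.99 and 5.40 in Col and 4.53, 4.84 and 5.22 in vte2 (-0.78, SE 0.21, limma adjusted p = 0.205). Neither overlapped between the genotypes, and the 4 others lay between -0.18 and 0.16.

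GH9B8 and GH9C2 had the largest differences among the named members of their family. The median level of the family was 3.63 in Col and 3.68 in vte2, near percentile 25 of all probe sets (3.57), where a difference can be missed. The 13 other named endo-1,4-beta-glucanases had differences between -0.08 and 0.21, the median of the named members was 0.03, and 2 of 15 fell. At1g65610, a putative endo-1,4-beta-glucanase that the study lists as higher in vte2, was not among these 15. The cytochrome P450 list was similar: of 22 genes none passed, and the 3 that were wholly lower were of subfamily CYP71B, as are most members of that list, among them CYP71B5 (-0.54, limma adjusted p = 0.131) and CYP71B34 (-0.66, limma adjusted p = 0.183).

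Of 5 methionine sulfoxide reductases, which repair oxidized methionine, 1 fell: MSRB5, in the study's tables, was at 8.53, 8.40 and 8.54 in Col and 6.86, 6.92 and 6.98 in vte2 (-1.57, SE 0.09, limma adjusted p = 8.78e-04). The others lay between -0.19 and 0.34. Of 7 named genes of the ascorbate-glutathione cycle and ascorbate synthesis none passed; the phosphatase VTC4 of ascorbate synthesis was at -0.42 (limma adjusted p = 0.108) and the monodehydroascorbate reductase ATMDAR2 at 0.54 (limma adjusted p = 0.185), and neither overlapped between the groups. The peptide STOMAGEN, which promotes stomatal development, was at -0.61 (limma adjusted p = 0.131), and RALFL34 of the study's tables at -0.51 (limma adjusted p = 0.0608).

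Among genes of the primary cell wall, differences ran both ways, and the endoglucanases GH9B8 and GH9C2 above were lower. Of 10 xyloglucan endotransglucosylases, 1 rose and none fell, 6 had all vte2 arrays above all Col arrays, and the median was 0.36, or 0.35 without Col replicate 2. XTH16, given above, was the member that passed. XTH33 was at 7.63, 6.70 and 6.91 in Col and 8.21, 8.21 and 8.05 in vte2 (1.08, SE 0.22, limma adjusted p = 0.109), and XTH20 was at 0.56.

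The adjacent genes XTH18 and XTH19 had larger differences that rested on 1 array. XTH19 was at 7.49, 3.99 and 7.70 in Col and 8.38, 8.31 and 8.07 in vte2, so that its difference of 1.87 (limma adjusted p = 0.512) became 0.66 (limma adjusted p = 0.0679) without Col replicate 2. XTH18 went from 1.21 to 0.51 in the same way.

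Among 19 expansins, 1 rose and 1 fell, 4 were wholly higher and 2 wholly lower, and the median was -0.02. The 4 higher ones were all 3 named members of the expansin-like A group and EXPA4. EXLA2 was at 4.91, 4.74 and 4.77 in Col and 5.67, 5.61 and 5.74 in vte2 (limma adjusted p = 0.0142), a clear gap with little spread. EXLA1 had a difference of 2.36 (SE 0.46, limma adjusted p = 0.0893), at 7.75, 5.66 and 6.71 in Col and 9.20, 9.17 and 8.81 in vte2; it passed without Col replicate 2, at 1.83 (limma adjusted p = 0.0298).

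EXLA3, the direct neighbour of EXLA1, was at 0.34, and EXPA4 was at 6.10, 6.13 and 6.69 in Col and 7.10, 7.26 and 7.71 in vte2 (1.05, SE 0.21, limma adjusted p = 0.0958). The lower expansins were EXPA9, in the study's tables, at 7.35, 7.30 and 7.53 in Col and 5.85, 6.08 and 6.55 in vte2 (-1.23, SE 0.18, limma adjusted p = 0.0361), and EXPB3 (-0.50, limma adjusted p = 0.12). EXPA4 and EXPA9, both of the alpha group, thus had opposite signs in arrays that did not overlap.

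Of 9 cellulose synthases and related synthases none passed, and 4 were wholly higher; CSLC04, known to make the xyloglucan backbone, was at 8.44, 7.99 and 8.35 in Col and 8.85, 8.87 and 8.78 in vte2 (0.57, SE 0.13, limma adjusted p = 0.139). CSLC12 was at 0.19. Of 7 pectin-modifying enzymes PME41 alone rose, and the others lay between -0.00 and 0.13. Of 10 tubulins and actins none passed; 3 were wholly higher, among them ACT11 (0.52, limma adjusted p = 0.128) and TUA6 (0.43, limma adjusted p = 0.233), and 1 wholly lower.

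Tetraspanins, small membrane proteins that organize membrane domains, went both ways. Of 15, 1 rose, 4 were wholly higher and 2 wholly lower. TET5 was at 4.28, 4.40 and 4.17 in Col and 5.75, 5.73 and 5.95 in vte2 (1.53, SE 0.10, limma adjusted p = 0.00247), and is in the study's tables. TET7 was at 0.40 and TET3 and TET2 were at -0.35 and -0.32 (limma adjusted p = 0.198 to 0.28). TET9 was at 4.68, 3.31 and 4.64 in Col, with Col replicate 2 low, and its difference of 0.98 became 0.53 without that array.

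Plant defensins showed opposite signs within a single gene cluster. LCR68, also called PDF2.3, was at 9.87, 9.96 and 9.81 in Col and 9.13, 9.30 and 9.12 in vte2 (-0.70, SE 0.09, limma adjusted p = 0.0322). LCR69, with 2 genes between them, was at 11.10, 10.88 and 10.88 in Col and 11.43, 11.52 and 11.38 in vte2 (0.49, SE 0.10, limma adjusted p = 0.0995), and PDF2.1, directly beside LCR68, was at 0.23. Neither gene overlapped between the genotypes.

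The jasmonate- and ethylene-responsive defensins PDF1.2 and PDF1.2b had all vte2 arrays above all Col arrays, with Col replicate 2 the highest of Col. PDF1.2 was at 5.12, 6.92 and 4.69 in Col and 7.45, 7.32 and 7.35 in vte2: its difference was 1.80 (limma adjusted p = 0.231) with all arrays and 2.47 (limma adjusted p = 3.67e-04) without Col replicate 2. PDF1.2b, in the study's tables, went from 2.01 (limma adjusted p = 0.0796) to 2.48 (limma adjusted p = 6.79e-04). These are near-identical genes, and the probe set of PDF1.2b is of a type that several transcripts share, so their signals may not be separate. Of 13 defensins, 5 were wholly higher and 1 wholly lower.

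The calmodulin-like and the cold-regulated genes had the highest medians of the 46 lists, and both medians were lower without Col replicate 2. Of 8 calmodulin-like calcium sensors none passed, all 8 differences were positive, and 3 were wholly higher; the median was 0.64, and 0.25 without that array. At1g76640, a calmodulin-related gene of the study's tables that lies directly beside CML38, was at 5.09, 4.24 and 6.46 in Col and 7.69, 7.85 and 7.81 in vte2 (2.52, SE 0.48, limma adjusted p = 0.0856), and passed without Col replicate 2 at 2.0 (limma adjusted p = 0.037). CML38 was at 7.49, 5.52 and 8.01 in Col and 8.51, 8.50 and 8.38 in vte2, and its difference went from 1.45 to 0.71.

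CML37 went from 1.37 to 0.27 and CML42 from 0.76 to 0.24, and both overlapped between the genotypes. CML41 was at 0.52, or 0.34. Of 7 named WRKY factors none passed. WRKY75, WRKY8 and WRKY38, which the study lists as higher in vte2, were not among the named genes. WRKY53, a regulator of leaf senescence, was at 6.92, 6.63 and 6.11 in Col and 8.03, 7.76 and 7.58 in vte2, a difference of 1.24 (limma adjusted p = 0.0598) that was 1.28 (limma adjusted p = 0.0507) without Col replicate 2. WRKY6 went from 1.05 to 0.63, and WRKY22 from 0.56 to -0.04. Of the named WRKY factors given here, WRKY53 was thus the one whose difference did not rest on that array.

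**Figure D3:**
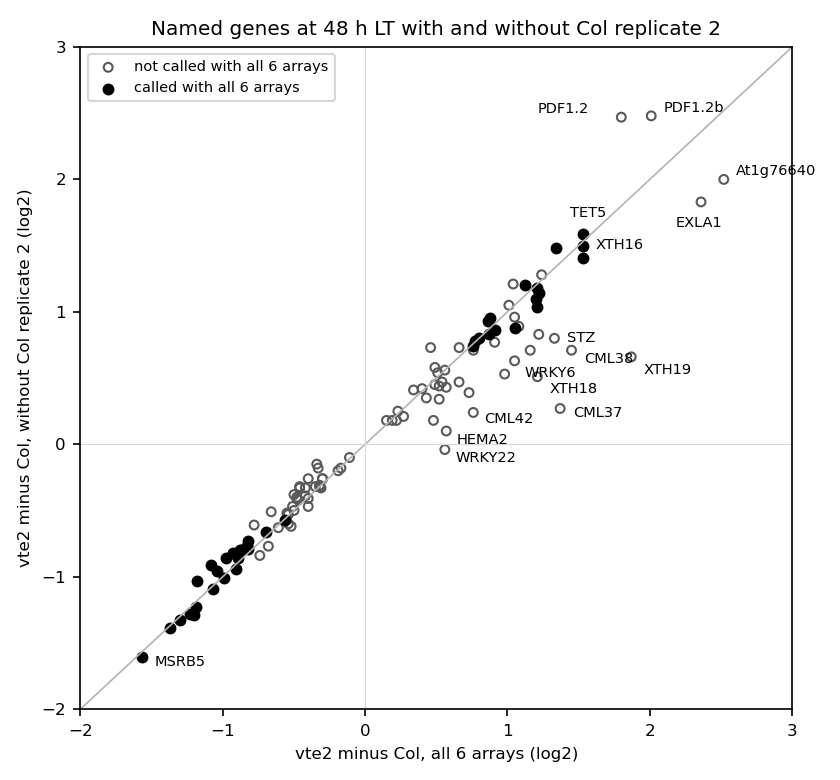
Difference between vte2 and Col at 48 h LT of the 116 named genes, with all 6 arrays (horizontal axis, log2) and without Col replicate 2 (vertical axis, log2); filled points passed in limma with all 6 arrays, and the diagonal marks equal values. Called genes lie near the diagonal, which is partly set by the selection, since a call favours genes with little spread among the Col arrays. XTH19 (1.87 to 0.66), CML37 (1.37 to 0.27) and WRKY22 (0.56 to -0.04) lie below the diagonal and PDF1.2 (1.80 to 2.47) above it.

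Of 15 ubiquitin ligases of the PUB and ATL families none passed. PUB24, one of the PUB proteins known to restrain immune responses, was at 7.16, 6.06 and 7.28 in Col and 8.12, 8.03 and 8.02 in vte2, and its difference of 1.22 (limma adjusted p = 0.166) was 0.83 (limma adjusted p = 0.0162) without Col replicate 2. PUB23 went from 1.16 to 0.71, and ATL8 was at -0.54 (limma adjusted p = 0.0861).

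The cold-regulated genes had a median of 0.48, and 0.18 without Col replicate 2; of 7, none passed, 4 were wholly higher and 2 wholly lower. STZ, a zinc finger repressor, was at 8.97, 7.57 and 9.35 in Col and 10.04, 10.02 and 9.82 in vte2, and its difference of 1.33 (limma adjusted p = 0.275) was 0.80 (limma adjusted p = 0.0472) without that array. SRC2 (0.66, or 0.47), COR27 (0.73, or 0.39) and the dehydrin COR47 (0.48, or 0.18) followed. COR15B, a chloroplast cryoprotective protein, was at 12.38, 12.44 and 12.52 in Col and 12.26, 12.31 and 12.20 in vte2 (-0.19, limma adjusted p = 0.481).

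**Figure D4:**
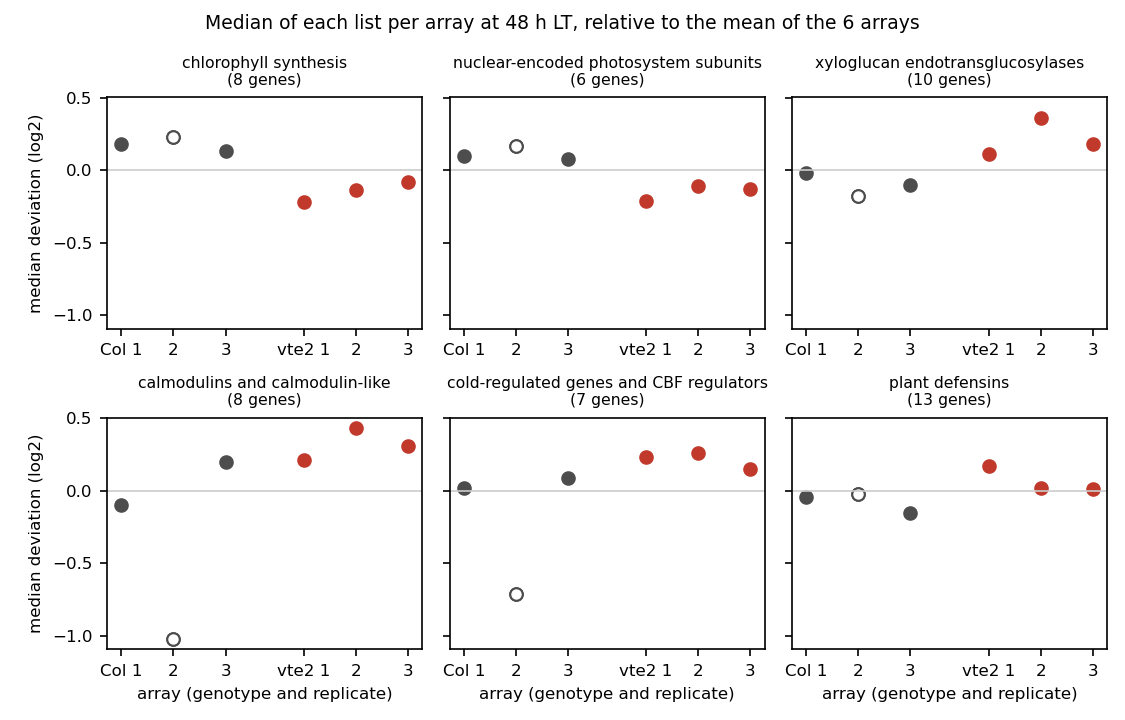
Median over the genes of 6 lists in each of the 6 arrays at 48 h LT (vertical axis, log2, relative to each gene's mean of the 6 arrays; grey for Col, red for vte2, open for Col replicate 2). The chlorophyll and photosystem lists separate the genotypes in all arrays, at 0.08 to 0.23 in Col and -0.22 to -0.08 in vte2, while Col replicate 2 lies at -1.02 for the calmodulin-like and -0.71 for the cold-regulated genes.

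Conjugating and redox enzymes were mixed. Of 51 UDP-glycosyltransferases, which attach sugars to hormones and secondary compounds, none passed, 9 were wholly higher and 4 wholly lower, and the median was 0.03; without Col replicate 2 these were 16 and 7, against 13.2% and 12.1% of all probe sets. UGT71B6 of the study's tables, which glucosylates abscisic acid, was at 0.91 (limma adjusted p = 0.0596), and UGT84A1 was at 5.08, 5.2 and 5.17 in Col and 5.63, 5.76 and 5.59 in vte2 (0.51, SE 0.09, limma adjusted p = 0.0648). UGT76E12 was at 1.04 and UGT73C1 at 0.66; these did not pass with all 6 arrays, but without Col replicate 2 UGT71B6 (0.77, limma adjusted p = 0.0472), UGT76E12 (1.21, limma adjusted p = 0.0399) and UGT73C1 (0.73, limma adjusted p = 0.0385) did. UGT76C2, which inactivates cytokinins, was at -0.52 and UGT88A1 at -0.48.

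Of 11 named tau-class glutathione transferases 1 rose and 1 fell. At1g74590 and At3g09270, putative glutathione transferases that the study lists as higher in vte2, were not among these 11. GSTU25, in the study's tables, was at 3.67, 3.77 and 4.09 in Col and 4.74, 5.07 and 5.35 in vte2 (1.21, SE 0.18, limma adjusted p = 0.0387). GSTU22, which lies 1 gene away from GSTU20, was at 0.22 and did not share its fall. Among 11 thioredoxins and glutaredoxins GRX480 alone passed, at 6.10, 5.45 and 5.78 in Col and 6.79, 6.80 and 6.88 in vte2 (limma adjusted p = 0.0433). Among 7 class III peroxidases PRX25 alone passed, at 3.78, 3.88 and 3.59 in Col and 4.71, 4.5 and 4.62 in vte2 (limma adjusted p = 0.0271).

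Of 17 genes of auxin responses none passed; WES1, a GH3 enzyme that conjugates auxin and is in the study's tables, was at 0.76 (limma adjusted p = 0.0916) and YUC11 at 0.27. Of 7 genes of flavonoid and anthocyanin synthesis none passed, and the reductase DFR was at 0.49 (limma adjusted p = 0.324), the only member wholly higher.

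With all 6 arrays, other lists held no called gene and none whose groups did not overlap. They were the chaperones of the endoplasmic reticulum (11 genes, median -0.01), glutamate receptor-like channels (8, -0.01), starch metabolism (7, 0.00) and histones (7, 0.04). Further ones were plastid ribosomal proteins (16, 0.04), cytosolic heat shock proteins (8, 0.08) and rotenone-insensitive dehydrogenases (5, 0.10). No calcium pump and no alternative oxidase was among the named genes of these lists. The study lists a gene of each of these kinds as higher in vte2 at 48 h. Without Col replicate 2, when 13.2% of all probe sets were wholly higher and 12.1% wholly lower, 4 of the 11 chaperone genes, 2 of the 7 starch genes and 1 of the 16 ribosomal genes were wholly higher and 1 of the 8 heat shock genes wholly lower. Autophagy genes (11, median -0.01) had 1 wholly higher and 1 wholly lower. A p over the threshold does not show that these genes were equal in both genotypes.

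The 0 h arrays were not part of the 6-array fit and give a separate view of the same genes. Of the 92 probe sets that fell at 48 h, 35 (38%) had a mean lower by over 0.5 in vte2 at 0 h. The share among all probe sets was 3.01%, and the median difference of the 92 at 0 h was -0.35. In only 9 of the 92 did all vte2 arrays lie below all Col arrays at 0 h. Most of the 35 thus had arrays that overlapped between the genotypes. Of the 58 that rose, 5 (8.62%) had a mean higher by over 0.5 at 0 h, against 1.81% of all probe sets. Their median at 0 h was -0.08, and 1 of the 58 was wholly higher there. The shares were not matched for level: the median level at 48 h was 6.84 for the falls and 6.07 for the rises. It was 5.14 for all probe sets. At 0 h the replicate 3 arrays of both genotypes stood apart (correlations down to 0.936 within a genotype); without both, a choice made after seeing the data, 43 of the 92 (46.7%, against 6.17%) and 6 of the 58 (10.3%, against 4.82%) were past 0.5.

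Among named genes, GH9B8 was at 7.19 ± 0.25 in Col and 5.74 ± 1.62 in vte2 at 0 h (SD, n = 3 each), a difference of -1.44 that did not pass (SE 0.51, limma adjusted p = 0.437 with 18 arrays) and that was -2.20 in replicates 1 and 2 alone. At3g45160 was at 8.55 ± 0.12 and 6.31 ± 1.59 at 0 h (SD, n = 3 each; -2.25, limma adjusted p = 0.225), and At2g39850, which fell by 0.81 at 48 h, differed by -1.50 at 0 h (limma adjusted p = 0.225). BCAT4 (-0.62 at 0 h), LCR68 (-0.48) and SWEET4 (-0.77) had the sign of their 48 h difference at 0 h too, as did XTH16 (0.96) and NANA (0.64). None of these passed at 0 h.

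The change over 48 h was also taken within each genotype. CHLM was at 11.35 ± 0.07 in Col and 11.15 ± 0.29 in vte2 at 0 h (SD, n = 3 each), and fell over 48 h of LT in both, with a change of -2.05 in Col and -2.40 in vte2 (SE 0.12, limma adjusted p = 1.05e-08 and 2.25e-09). CBL differed by -0.07 at 0 h and fell over 48 h in vte2 by 1.11 (limma adjusted p = 2.86e-04), while its change in Col was -0.35 (limma adjusted p = 0.187). F6'H1 rose in both, by 2.23 in Col and 3.02 in vte2 (limma adjusted p = 8.14e-05 and 3.54e-06), and BGLU25 by 2.23 and 3.23.

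Other genes had the opposite sign at 0 h. GRX480 differed by -0.83 at 0 h; it rose over 48 h in vte2 by 1.62 (limma adjusted p = 0.00396), and its change in Col was -0.25 (limma adjusted p = 0.673). At4g18280 differed by -0.77 at 0 h. DEWAX, which fell at 48 h, differed by 0.53 at 0 h with an SD of 4.28 in Col and 3.85 in vte2. Of genes that did not pass at 48 h, STZ differed by -1.80 at 0 h and CML38 by -1.27, with SDs at 0 h of up to 3.14.

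**Figure D5:**
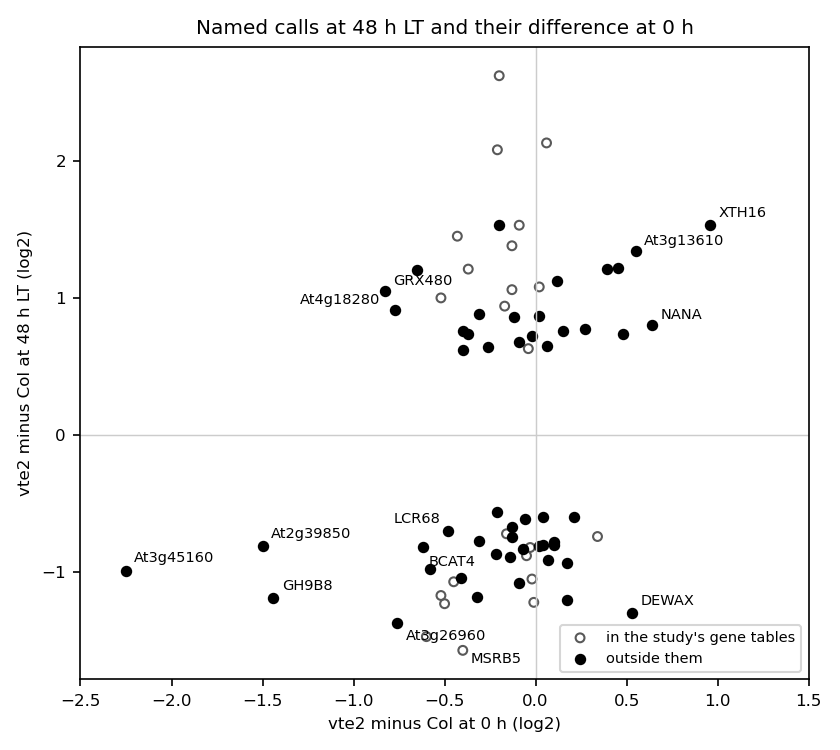
Difference between vte2 and Col at 0 h (horizontal axis, log2) and at 48 h LT (vertical axis, log2) of the 74 named genes that passed at 48 h; open points are in the study's gene tables, filled points are not. At3g45160 (-2.25), GH9B8 (-1.44) and XTH16 (0.96) differed at 0 h in the direction of 48 h, and GRX480 (-0.83) in the opposite one.

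Whether the change from 0 to 48 h itself differed between the genotypes was tested with all 18 arrays. It did for 12 of 22810 probe sets in limma (11 with the higher change in vte2, 0.0482%, and 1 with the lower, 0.00438%), and 1683 had an unadjusted p under 0.05. None of the 51 named calls outside the study's tables was among the 12, and 13 of the 51 had an unadjusted p under 0.05. The 48 h differences of these genes are therefore not shown to differ from those at 0 h. At 120 h the arrays as labelled ran the other way, with the opposite sign in 91 of the 92 falls and 51 of the 58 rises. The labels and the study's plots over time give different directions at 120 h, so that direction is not settled here.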

How the data were processed

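Leaf RNA of Col and vte2 was hybridized to ATH1 arrays. The authors deposited log2 values, made by RMA (affy), which adjusts background, quantile-normalizes over all 18 arrays and summarizes the perfect match probes; these log2 values were used as deposited for 22810 probe sets (64 of them controls), and depth does not apply to arrays. The 6-array fit had 4 residual and 3.43 prior degrees of freedom.

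The 6 arrays at 48 h were fitted with limma 3.58.1 in R 4.3.3 (default empirical Bayes, Benjamini-Hochberg over all probe sets, threshold 0.05), and the difference between genotypes in the change from 0 to 48 h with 6 group means over 18 arrays. The unit of replication was the array. Tested on simulated arrays of 22810 probe sets, this comparison recovered 72% of 2-fold and 6% of log2 changes of 0.5, and called 4 unchanged probe sets. The simulated noise was independent and equal in all arrays, with no array that stood apart as Col replicate 2 did. These rates therefore need not hold for the real arrays.

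Names came from the probe table and RefSeq (TAIR10.1): 13513 probe sets had 1 gene, 503 several, and 8794 were not listed and are not named; 13436 had a locus, covering 13286 genes. Of 103 gene lists, 46 had 5 or more named genes, after wrong name matches were removed, and 3 smaller ones were also described. Photosystem genes were split by genome after their values were seen, and At1g51400 was added to the nuclear ones from its annotation in the study's tables. Members, lists and tests were chosen with earlier results of these data known. The named genes were the 15 largest rises and falls among calls outside the study's tables, with all 6 values for 5 of each; per list up to 4 called members, or the 2 of smallest p where none passed; and 44 further members chosen after their values were seen. Alternatives tried were 18 arrays, a replicate block, normalization, a filter on the 40% dimmest probe sets, array weights, the prior and the omission of each array.

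Same-numbered Col and vte2 arrays deviated from their group means with correlations of 0.205, 0.054 and 0.302, against -0.3 to 0.152 for arrays of unlike number. The labels state no pairing, and the main fit did not pair the arrays. Whether the numbers mark a shared source was not tested, and the replicate block gives the fit that uses them. Sequences were not used here.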

Additional observations from a re-analysis of the deposited data

Results flagged for a closer look

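The change from 0 to 48 h of LT differed between the genotypes, by a test of the difference itself in limma over 18 arrays, for 2 genes named above. For TET5 the change in vte2 exceeded that in Col by 1.61 on the log2 scale (SE 0.17, limma adjusted p = 0.00124). For the auxin-conjugating GH3 enzyme WES1 it did so by 1.3 (SE 0.19, limma adjusted p = 0.0223). Both genes are in the study's tables, chosen on these arrays.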

How the results depend on the processing

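Of 150 calls at 48 h, the fit of 18 arrays gave 77 and array weights 488; leaving out 1 array gave 15 to 251, the lowest without vte2 replicate 2 (with 18 and 29 without vte2 replicates 1 and 3, 58 without Col replicate 1, and 230 and 251 without Col replicates 3 and 2). Cyclic loess gave 173, median centring 170, the filter on dim probe sets 165, the trended prior 212 and the replicate block 100 (39 higher and 61 lower), each within 1.5 times of 150. The 12 calls for the difference between changes became 25 with the replicate block, 2 with the 12 arrays at 0 and 48 h, 117 with array weights and 6 to 311 with 1 array left out (311 without Col replicate 3 and 191 without vte2 replicate 3 at 0 h, and 45 without Col replicate 3 at 48 h). Of the 39 named genes that passed, 2 (MSRB5 and TET5) did so in all 13 other settings; 38 passed without Col replicate 2, 22 with the replicate block, 14 without Col replicate 1, 7 with 18 arrays, and 3, 3 and 8 without vte2 replicates 1, 2 and 3. Only WRKY22 changed sign, to -0.04 without Col replicate 2, and ranged up to 0.91 without Col replicate 3. In their deviations from the group means, the arrays correlated best with the array of their own number in the other genotype, except vte2 replicate 2. That array did so with Col replicate 1 (0.152, against 0.054 with Col replicate 2). The causes were not tested. Single-gene calls at this size rest on 3 arrays a group, and dim probe sets have no measure of background here.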
